A study of Mus musculus with 12 samples.

Results

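The genes described here encode the factors that start and extend protein synthesis on cytosolic ribosomes, together with the proteins named for acting on those factors. They were taken by symbol: every row of the gene table beginning Eif followed by a digit from 1 to 6, or Eef followed by 1 or 2, without pseudogenes marked -ps and without the sex-linked pair Eif2s3x and Eif2s3y. This gave 87 of 47359 genes, of which 66 could be placed in 10 roles and 21 were left without a role. Most of the 21 were copies or readthrough genes by their symbols, and Eif2c5 is annotated as a noncoding RNA. The symbol rule takes in genes that are not factors themselves, such as the eIF2 kinases, the eEF1A lysine methyltransferases and the eIF4E-binding proteins. The filter on low counts was passed by 64 of the 87. The 23 others were Eef1ece2, which had no count in any library, 17 numbered Eif1ad copies, Eif2c5, Eif4a3l1, Eif4e1b, Eef1akmt3 and Eef1a2, the eEF1A form of neurons and muscle, with 3 counts in the DKO SLAMF6+ library and 0 elsewhere. Eif4a3l2 passed through 12 counts in the DKO SLAMF6+ library.

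In eukaryotic initiation, eIF2 carries the initiator tRNA with GTP to the small ribosomal subunit, where eIF3, eIF1, eIF1A and eIF5 hold the complex. The eIF4F complex brings the messenger RNA: eIF4E binds the cap, eIF4G is the scaffold and eIF4A is the helicase. The large subunit then joins with eIF5B, eEF1A delivers each aminoacyl-tRNA, and eEF2 moves the ribosome by a codon. Control falls mainly on eIF4E, which the eIF4E-binding proteins withhold from eIF4G until mTORC1 phosphorylates them, and on eIF2, whose phosphorylation by stress kinases blocks its exchange factor eIF2B. In T cells, activation is known to raise translation together with mTORC1 activity. Many of these factors, like the ribosomal proteins, are encoded by messengers that begin with a terminal oligopyrimidine (TOP) tract and whose translation follows mTORC1.

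The 12 bulk RNA sequencing libraries came from 2D2 T cells, which carry a transgenic receptor for a myelin peptide, studied as TH17 cells in EAE (experimental autoimmune encephalomyelitis), which models multiple sclerosis in mice. All cells had been transferred into RAG2-/- mice, hosts without lymphocytes of their own, and were recovered from the CNS when disease peaked. They were sorted as CXCR6+ or SLAMF6+. WT cells (labelled 2D2-WT) gave 5 libraries of each subset, and cells lacking IL-17A and IL-17F (labelled 2D2-IL-17A/F-DKO, here DKO) gave 1 library of each subset. The sources used here state neither age nor whether replicate numbers stand for separate mice, so p-values measure the spread between these libraries, which may be technical. Each library was made from 1000 sorted living cells.

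Total counts ran from 6818658 to 8710148 in WT CXCR6+, from 8134987 to 11635037 in WT SLAMF6+, and were 8552216 and 8285134 in DKO CXCR6+ and DKO SLAMF6+. The sort was made on surface protein, and its transcripts followed the labels only in part. Cxcr6 stood at 42.1, 42.9, 4.34, 19.8 and 22.4 CPM (counts per 1000000 counts of the library, its size scaled by TMM) in WT CXCR6+ libraries 1 to 5 and at 19.1, 15.7, 17.6, 16.6 and 11.4 CPM in WT SLAMF6+ libraries 1 to 5, so the subsets overlapped, with WT CXCR6+ 3 below every SLAMF6+ library. Slamf6 was scarce and did not overlap, at 1.69 to 5.02 CPM in WT CXCR6+ and 5.90 to 11.0 in WT SLAMF6+. The DKO pair had far more of both transcripts than any WT library, Cxcr6 at 382 CPM in CXCR6+ and 162 in SLAMF6+, and Slamf6 at 75.8 and 259 CPM. Il17a was 191 to 442 CPM in WT CXCR6+ and 228 to 465 in WT SLAMF6+. The DKO CXCR6+ library held 0 and the DKO SLAMF6+ library 0.434 CPM of it, and Il17f was at most 0.145 CPM in both DKO libraries. The DKO libraries also differed from WT in ways beyond the deleted genes. Xist was 0 CPM in both and Ddx3y 36.3 and 36.1 CPM, whereas every WT library had Xist and none had Ddx3y, so the sex of the cells and the genotype cannot be told apart. The T cell receptor gene Trbc2 stood at 1797 and 2026 CPM in DKO against 17950 to 27520 and 26430 to 31830 in WT, while Cd3e was 578 and 544 CPM against 141 to 179 and 217 to 242. The 5 neutrophil markers summed to 926 CPM in DKO CXCR6+ and 91.8 in DKO SLAMF6+, against at most 2.3 in WT, where S100a8, S100a9 and Retnlg were at 0. Erythroid markers reached 143700 CPM in DKO SLAMF6+ and at most 3.6 CPM in any other library, and the 6 dendritic cell and MHC class II markers 1550 CPM there against 265 in DKO CXCR6+, 87.2 to 142 in WT CXCR6+ and 269 to 330.4 in WT SLAMF6+. The 13 microglia and macrophage markers summed to 122 CPM in DKO CXCR6+ and 333 in DKO SLAMF6+, above all WT libraries (29.1 to 93.9). Of the 12 tested, 4 were higher and 3 lower in DKO CXCR6+, and 7 higher and 2 lower in DKO SLAMF6+. The 6 oligodendrocyte markers were also above WT (249.6 and 234 CPM against 65.5 to 149), and the 5 astrocyte markers below it (3.01 and 1.16 against 49.4 to 147). The 10 T cell markers, Trbc2 among them, summed to 7078 and 8081 CPM in DKO against 22320 to 39580 in WT. By gene, 4 of the 10 were higher and 2 lower in DKO CXCR6+, and 5 higher and 2 lower in DKO SLAMF6+. Their median log2 fold changes were 0.30 and 0.46. The part of these cells, and of sex, in the DKO differences below was not tested. With scaling factors computed without haemoglobin, receptor, mitochondrial and ribosomal protein genes, the DKO counts of called members below were the same, 21 lower and 11 higher in CXCR6+ and 30 and 5 in SLAMF6+.

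A few promoters are shown because they bear on members described below that moved in different directions yet carry the same letters. RefSeq promoters on GRCm38.p6, from 250 bases before to 50 bases after the annotated start, were found for 52 of the 87 genes, 49 of them tested. The letters CACGTG, the E-box that MYC and its relatives bind, were searched on both strands, on which they read alike. They stood in 13 of 49 translation factor promoters (26.5%), against 2187 of 27025 genes in the whole promoter table (8.09%). A gene counted when any of its listed starts had a match, and all genes were not matched for expression or GC content. Where a gene had several listed starts, the one with the most CACGTG matches is printed. Below, sequences run 5′ to 3′ on the gene's own strand, and capitals mark CACGTG and, in Eef2, also TATAA. Eef2 (chr10:81176551-81176640, plus strand), Eif1b (chr9:120492526-120492615, plus) and Eif4g1 (chr16:20672647-20672736, plus) are given from 80 bases before the start through 10 bases of the transcript. Eif4g1 had a second CACGTG, 15 bases after the start, which the printed stretch leaves out. Eif4e (chr3:138527028-138527267, plus, the second of 2 listed starts) and Eif4a1 (chr11:69672424-69672623, minus) are given as the 240 and 200 bases before the start.
Eef2: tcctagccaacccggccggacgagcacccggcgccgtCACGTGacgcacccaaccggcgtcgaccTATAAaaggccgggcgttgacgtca
Eif1b: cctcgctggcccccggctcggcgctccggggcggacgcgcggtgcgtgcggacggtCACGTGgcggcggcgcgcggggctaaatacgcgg
Eif4g1: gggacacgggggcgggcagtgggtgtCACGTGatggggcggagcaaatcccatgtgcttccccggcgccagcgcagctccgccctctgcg
Eif4e: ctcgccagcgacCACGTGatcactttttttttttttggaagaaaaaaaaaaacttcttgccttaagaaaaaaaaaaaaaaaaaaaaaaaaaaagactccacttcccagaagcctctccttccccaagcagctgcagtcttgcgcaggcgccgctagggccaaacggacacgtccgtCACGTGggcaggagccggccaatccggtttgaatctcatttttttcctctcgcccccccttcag
Eif4a1: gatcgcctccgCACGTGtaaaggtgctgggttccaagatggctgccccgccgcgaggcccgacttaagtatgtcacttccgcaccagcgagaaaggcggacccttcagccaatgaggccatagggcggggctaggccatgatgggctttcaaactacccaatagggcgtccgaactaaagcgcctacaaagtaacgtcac

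These 5 genes did not move alike between the WT subsets. Eef2, Eif1b and Eif4e were lower in CXCR6+, Eif4g1 was higher and Eif4a1 did not pass the test. Of the members with a promoter sequence, CACGTG stood in 9 of 30 that were lower in WT CXCR6+, 1 of 7 that were higher and 3 of 12 that were not called. TATAA was found on either strand in 14.3% of the translation factor promoters against 28.0% of all genes. TGATGNAA, the letters of the element that ATF4 and its partners bind, was found in 1 of 49 (Eef2k), against 4.51% of all genes and 5 of 14 aminoacyl-tRNA synthetase promoters. Each motif was counted by itself, also where matches overlapped. These are matches of letters in the window and say nothing of binding.

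In WT cells, most translation factor transcripts were lower in CXCR6+ than in SLAMF6+ cells. Of the 64 tested, 40 were lower and 8 higher in CXCR6+ at an adjusted p under 0.05 in edgeR's quasi-likelihood test (Benjamini-Hochberg over all genes tested), and 16 did not pass. Among all 21565 genes tested, 17.7% were called lower and 15.6% higher, so the share of members called lower (62.5%) was far above the background and the share called higher (12.5%) was near it. Here and below, shares of all genes are not matched for expression. Of the genes tested, 7604 had a known length and a mean of at least 10 CPM, and scarcer genes are called less readily. The median log2 fold change of the members was -0.68, against 0.13 for all genes. Without WT CXCR6+ 3, the library with the least Cxcr6, 41 were lower and 8 higher. Without overlap between the 5 and 5 libraries, 36 members (56.2%) were lower and 8 (12.5%) higher, against 15.0% and 12.8% of all genes. Marker sums of some other cell types moved with the subsets without overlap, though the genes within a list did not all move alike. The MHC class II sums given above were lower in CXCR6+, the 13 microglia and macrophage markers summed to 29.1 to 56.3 CPM in WT CXCR6+ against 74.3 to 93.9 in WT SLAMF6+, the 5 astrocyte markers to 49.4 to 72.2 against 133 to 147, and the 6 oligodendrocyte markers to 65.5 to 75.0 against 123 to 149. By gene, 2 of 12 tested microglia and macrophage markers were lower in CXCR6+ and 2 higher (median log2 fold change 1.18). Of the MHC class II list, 4 of 6 were lower and none higher. Of the oligodendrocyte list, 2 of 4 were lower and none higher (median 0.16), and of the astrocyte list 1 of 2 was lower. Malat1, a nuclear noncoding RNA, took 0.888 to 1.18% of counts in WT CXCR6+ and 0.187 to 0.257% in WT SLAMF6+. The part of these in the WT differences was not tested. Fewer cells of a type and less RNA per cell cannot be told apart in bulk samples.

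**Figure D1:**
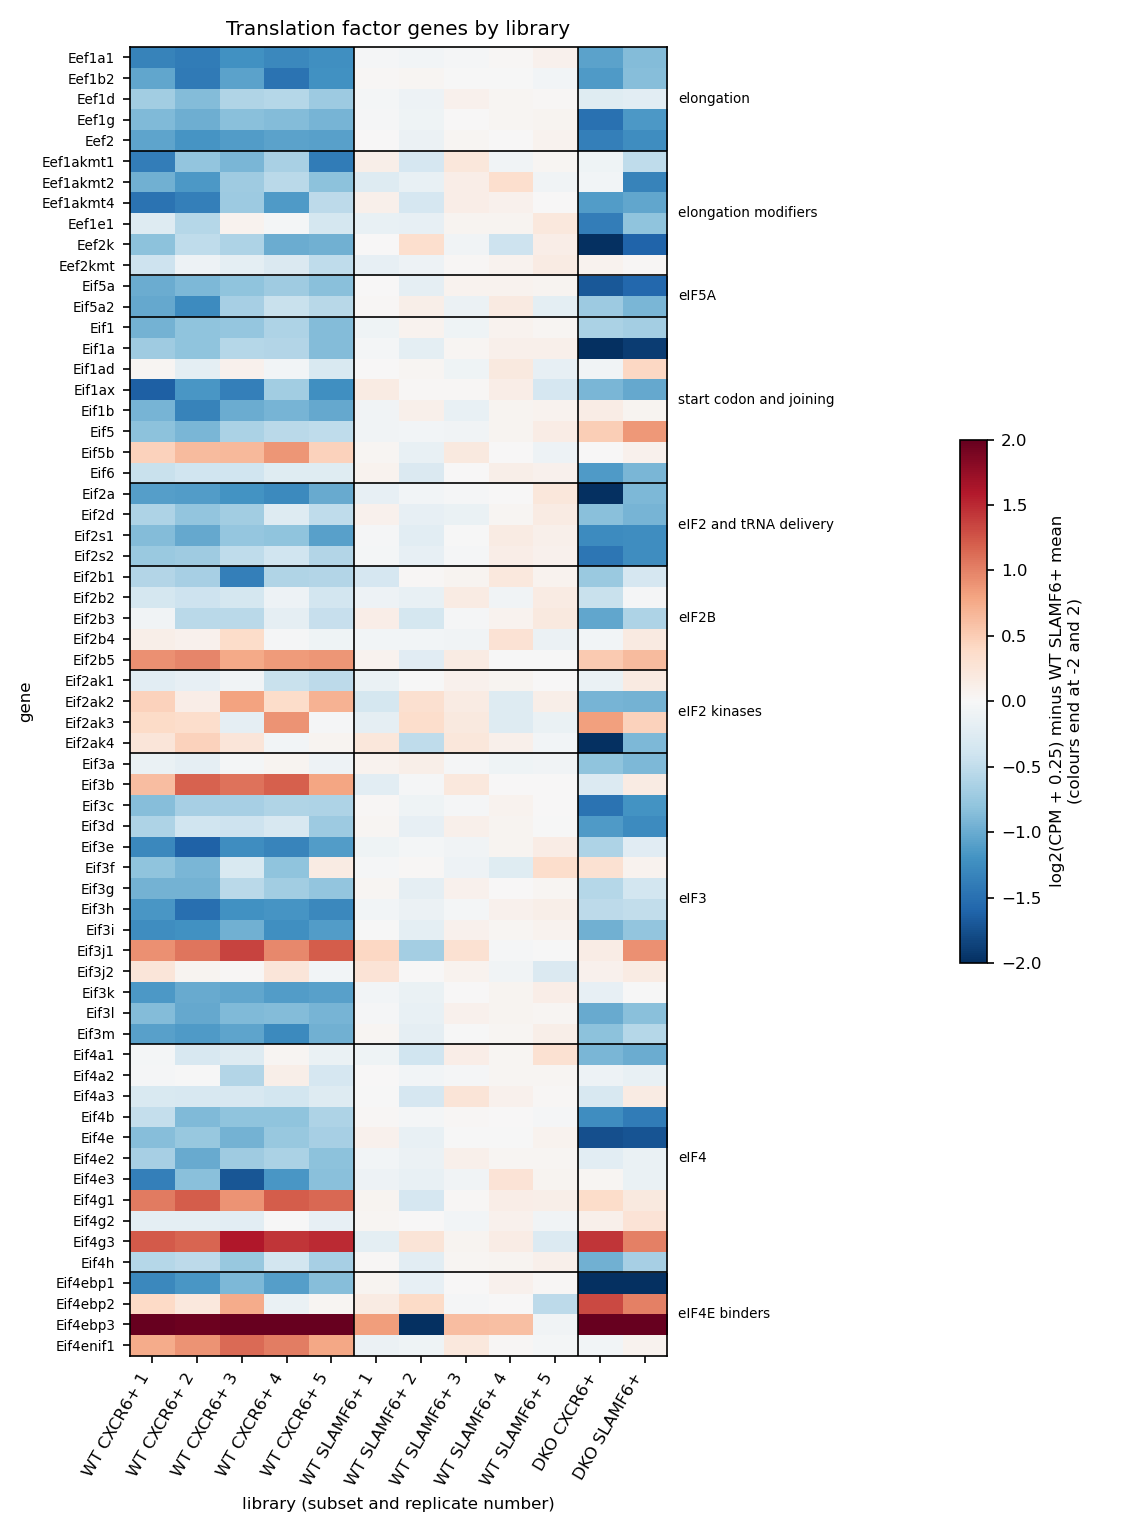
Each row is a tested gene of an assigned role, each column a library, and the colour is log2(CPM + 0.25) minus the mean of the 5 WT SLAMF6+ libraries. Blue fills most rows of the WT CXCR6+ columns (40 of 64 members lower), red marks Eif4g1, Eif4g3, Eif3b, Eif4enif1 and Eif2b5 there, and the DKO columns show Eif4ebp1, Eif1a and Eif4e at the blue end.

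The counts of all 87 genes together made up 1.49 to 1.62% of each WT CXCR6+ library and 2.22 to 2.45% of each WT SLAMF6+ library. Without Eef1a1, the largest contributor, the shares were 1.05 to 1.14% and 1.37 to 1.51%, still without overlap. Ribosomal protein genes took 9.24 to 10.6% and 18.5 to 19.7% of counts, and 80 of their 87 tested genes were lower in CXCR6+ (median log2 fold change -1.25). Translation factors therefore stood at 14.7 to 16.2 counts per 100 ribosomal protein counts in WT CXCR6+ and 11.9 to 12.9 in WT SLAMF6+. Mitochondrially encoded genes took 12.9 to 17.6% of counts in WT CXCR6+ and 2.20 to 5.24% in WT SLAMF6+, and their part in the shares was not tested. With scaling factors computed without the mitochondrial, ribosomal protein, T cell receptor and haemoglobin genes, 41 members were lower and 8 higher. The mitochondrial tRNA gene mt-Ts1 was listed at 0 in 1 WT CXCR6+ and 4 WT SLAMF6+ libraries. With a term for these libraries in the fit, 35 members were lower and 8 higher. The median log2 difference over the 64 members was -0.71 among libraries at 0 (1 against 4) and -0.53 among the others (4 against 1), so that 1 arm of each is a single library.

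Elongation factors took the largest part of these counts, 0.792 to 0.895% of each WT CXCR6+ and 1.42 to 1.54% of each WT SLAMF6+ library, and all 5 tested were lower in WT CXCR6+. Eef1a1 (chromosome 9, 78478449 to 78489151, GRCm38) encodes the eEF1A that carries aminoacyl-tRNA to the ribosome, and its reads may be shared with processed copies. It stood at 3972, 3811, 4325, 4105 and 4319 CPM in WT CXCR6+ libraries 1 to 5 and at 9855, 9722, 9893, 10210 and 10660 CPM in WT SLAMF6+ libraries 1 to 5. The 2 groups were far apart, at 4106 ± 222 and 10070 ± 376 CPM (mean ± SD, n = 5 each). The log2 fold change was -1.29 (SE 0.067), with an edgeR adjusted p of 5.14e-07. Per kilobase of transcript this was 2289 against 5612 CPM, the highest level of any member in either subset. Eef2 (chromosome 10, 81176631 to 81182498), the translocase, measured 1453, 1325, 1393, 1427 and 1424 CPM in WT CXCR6+ and 3011, 2776, 3107, 3013 and 3154 in WT SLAMF6+, again without overlap. Its log2 fold change was -1.10 (SE 0.057) and its edgeR adjusted p 5.14e-07.

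The 3 subunits that recharge eEF1A with GTP moved by unequal amounts. Eef1b2, a nucleotide exchange subunit, was at 1147, 881, 1118, 843 and 1016 CPM in WT CXCR6+ and 2378, 2416, 2338, 2344 and 2263 in WT SLAMF6+, a log2 fold change of -1.23 (SE 0.091). Eef1g, the scaffold subunit, stood at 579, 540.5, 594, 579 and 559 CPM in WT CXCR6+ and 1045, 1004, 1069, 1094 and 1105 in WT SLAMF6+ (-0.90, SE 0.049). Eef1d, the second exchange subunit, stood at 214, 189, 226, 232 and 208 CPM in WT CXCR6+ and 335, 320.1, 365, 353 and 351 in WT SLAMF6+ (-0.69, SE 0.066). None of the 3 overlapped between the subsets, and the gap was widest for Eef1b2. Among the genes named for acting on elongation factors, 5 of 6 were lower: the methyltransferases Eef1akmt1 (-1.02), Eef1akmt2 (-0.84) and Eef1akmt4 (-1.02) of eEF1A, Eef2kmt (-0.30) of eEF2, and Eef2k (-0.81), all log2 fold changes. Eef1akmt1 was at 17.1, 26.0, 23.8, 28.6 and 17.0 CPM in WT CXCR6+ and 49.2, 35.9, 53.1, 43.2 and 46.4 in WT SLAMF6+. Eef1akmt2 was at 20.5, 17.9, 24.4, 27.4 and 22.6 CPM in WT CXCR6+ and 33.3, 36.2, 44.0, 50.8 and 38.1 in WT SLAMF6+. In both the groups did not overlap. Eef2k encodes the kinase that inhibits eEF2, and stood at 5.43, 6.804, 6.28, 4.78 and 4.91 CPM in WT CXCR6+ and 9.86, 12.3, 9.30, 7.29 and 10.7 in WT SLAMF6+. The highest CXCR6+ value lay under the lowest SLAMF6+ value. Eef1e1, which encodes a part of the multi-tRNA synthetase complex rather than an elongation factor, was at 44.5, 35.7, 55.9, 52.0 and 41.7 CPM in WT CXCR6+ and 47.9, 47.5, 55.3, 55.5 and 61.7 in WT SLAMF6+ and did not pass (edgeR adjusted p = 0.195). Both eIF5A genes, whose products need the modified residue hypusine, were lower: Eif5a had a log2 fold change of -0.85 (SE 0.072) and the scarce Eif5a2 (1.21 to 2.29 against 2.77 to 3.69 CPM) one of -0.84 (SE 0.27). Of these calls, Eef2kmt's was lost without WT CXCR6+ 1, 4 or 5 or WT SLAMF6+ 3, 4 or 5 (edgeR adjusted p from 0.0583 to 0.0858), and Eif5a2's without WT CXCR6+ 1 or 2 or WT SLAMF6+ 1, 2, 3 or 4 (0.0519 to 0.0766).

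Of the factors of start codon recognition and subunit joining, 6 of 8 were lower and 1 higher. Eif1 and Eif1b, near-identical keepers of start codon fidelity, changed by -0.80 (SE 0.070) and -1.04 (SE 0.090) on the log2 scale. Eif1 was far the more abundant, at 640.4, 704, 718, 802 and 674 CPM in WT CXCR6+ and 1153, 1290, 1154, 1282 and 1266 in WT SLAMF6+. Eif1b (chromosome 9, 120492232 to 120495330) stood at 32.6, 24.5, 31.1, 32.3 and 30.5 CPM in WT CXCR6+ and 58.9, 66.5, 55.6, 64.6 and 65.0 in WT SLAMF6+. Its groups were wide apart, with replicate 2 the lowest CXCR6+ library. The eIF1A genes Eif1a and Eif1ax, which encode near-identical proteins so that reads could be split between them, changed by -0.71 (SE 0.085) and -1.21 (SE 0.17). Eif1ax stood at 15.1, 21.1, 18.2, 29.2 and 20.2 CPM in WT CXCR6+ and 53.4, 48.3, 48.2, 51.9 and 37.4 in WT SLAMF6+, with no overlap. Eif5, the activator of eIF2's GTP hydrolysis, changed by -0.68 (SE 0.087) and Eif6, which keeps free large subunits apart from small ones, by -0.35 (SE 0.083). Eif5b, the GTPase of subunit joining, was the member of this group that was higher: 24.2, 27.3, 27.5, 32.3 and 24.1 CPM in WT CXCR6+ and 18.0, 15.7, 20.1, 17.6 and 16.3 in WT SLAMF6+, a log2 fold change of 0.63 (SE 0.11). Eif1ad did not pass (-0.080, edgeR adjusted p = 0.564).

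All 4 tested genes of eIF2 and tRNA delivery were lower in WT CXCR6+. The eIF2 alpha subunit gene Eif2s1, whose product the stress kinases phosphorylate, was at 114, 102, 121, 119 and 97.8 CPM in WT CXCR6+ and 204, 180, 206, 233 and 223 in WT SLAMF6+ (log2 fold change -0.92, SE 0.086), and the beta subunit gene Eif2s2 changed by -0.59 (SE 0.083). Eif2a, a separate tRNA-binding factor, was at 37.2, 36.4, 34.6, 32.7 and 39.6 CPM in WT CXCR6+ and 71.3, 76.5, 78.4, 79.9 and 93.6 in WT SLAMF6+ (-1.15, SE 0.084), and Eif2d changed by -0.57 (SE 0.11). In Eif2s1 and Eif2a, every CXCR6+ library lay below every SLAMF6+ library. The 4 kinase genes did not share this: Eif2ak1 (the haem-regulated kinase), Eif2ak2 (PKR), Eif2ak3 (PERK) and Eif2ak4 (GCN2) had log2 fold changes of -0.28, 0.49, 0.34 and 0.18, with edgeR adjusted p-values of 0.0665, 0.0564, 0.318 and 0.488. Eif2ak2 was at 15.0, 11.8, 19.1, 14.0 and 17.6 CPM in WT CXCR6+ and 8.43, 13.6, 12.2, 9.04 and 11.8 in WT SLAMF6+. Eif2ak3 was at 6.03, 5.93, 3.998, 8.76 and 4.46 CPM in WT CXCR6+ and 4.02, 5.90, 5.29, 3.79 and 4.15 in WT SLAMF6+. Eif2ak1 was at 18.0, 18.8, 19.9, 15.2 and 14.5 CPM in WT CXCR6+ and 19.1, 20.8, 22.2, 21.9 and 21.0 in WT SLAMF6+. In all 3 the subsets overlapped. These were scarce transcripts, between 1.03 CPM per kilobase (Eif2ak3, WT SLAMF6+ mean) and 4.85 (Eif2ak1, same group). The exchange factor eIF2B was mixed among its 5 subunits. Eif2b1 and Eif2b2 were lower (-0.75 and -0.32 log2), Eif2b3 and Eif2b4 did not pass (-0.36 and 0.096), and Eif2b5, the catalytic epsilon subunit, was higher. Eif2b5 stood at 28.2, 29.5, 25.4, 27.0 and 27.4 CPM in WT CXCR6+ and 15.6, 12.6, 16.6, 14.8 and 14.7 in WT SLAMF6+. All 5 CXCR6+ values lay above all SLAMF6+ values, and the log2 fold change was 0.89 (SE 0.091) with an edgeR adjusted p of 2.75e-05.

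The eIF3 complex, a scaffold of many subunits on the small ribosomal subunit, had 9 of 14 genes lower and 2 higher in WT CXCR6+. Eif3e (chromosome 15, 43250058 to 43282719) had the lowest log2 fold change of all called members, -1.31 (SE 0.090). It stood at 129, 104, 134, 127 and 147 CPM in WT CXCR6+ and 299, 310, 302, 328 and 350.5 in WT SLAMF6+. No library of either subset came near the range of the other. Eif3h, of the same outer module of the complex, was at 269, 213, 262, 268 and 247 CPM in WT CXCR6+ and 581, 557, 590.3, 644 and 656 in WT SLAMF6+ (-1.27, SE 0.078). Eif3m, its neighbour there, was at 149, 145, 152, 132 and 164 CPM in WT CXCR6+ and 327, 280.2, 315, 325 and 344 in WT SLAMF6+ (-1.10, SE 0.073). Neither overlapped between subsets. Eif3i, which binds Eif3b in the complex's mobile module, was at 152, 155, 186, 154 and 166 CPM in WT CXCR6+ and 358, 317, 382, 373 and 378 in WT SLAMF6+ (-1.15, SE 0.075). Eif3k was at 192, 210.3, 206, 195 and 201 CPM in WT CXCR6+ and 409, 389, 426, 441 and 464 in WT SLAMF6+ (-1.08, SE 0.058) and Eif3l, its partner, at 131, 117, 129.7, 129.9 and 124 CPM in WT CXCR6+ and 234, 214, 252, 247 and 246 in WT SLAMF6+. None of these 3 overlapped either. In log2 fold change they were followed by Eif3l (-0.92), Eif3g (-0.78), Eif3c (-0.68) and Eif3d (-0.49). The largest subunit's gene, Eif3a, stood at 114 to 133 CPM in WT CXCR6+ and 120.5 to 139 in WT SLAMF6+ and did not pass (-0.077, edgeR adjusted p = 0.371). Eif3b, a core scaffold subunit, went the other way, with 48.1, 71.3, 66.3, 71.5 and 54.0 CPM in WT CXCR6+ and 26.9, 30.7, 36.3, 31.3 and 31.6 in WT SLAMF6+. Its groups did not overlap and its log2 fold change was 0.99 (SE 0.13), so that 2 subunits of 1 complex, Eif3b and Eif3i, differed in opposite directions. The loosely bound eIF3j is encoded by a pair of near-identical genes whose reads may be split: Eif3j1 was higher (1.14, SE 0.26, 4.34 to 5.94 against 1.26 to 2.97 CPM) and Eif3j2 did not pass (0.10). Eif3f also did not pass (-0.49, edgeR adjusted p = 0.0954).

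Among the 11 eIF4 genes tested, 6 were lower and 2 higher in WT CXCR6+. The cap-binding genes were all lower: Eif4e had a log2 fold change of -0.80 (SE 0.066), Eif4e2 of -0.77 (SE 0.079) and Eif4e3 of -1.17 (SE 0.17). The helicase cofactors Eif4b (-0.71, SE 0.077) and Eif4h (-0.57, SE 0.084) were lower too, as was Eif4a3 (-0.33, SE 0.093), the helicase of the exon junction complex. Eif4b was at 153, 115, 122, 122 and 138 CPM in WT CXCR6+ and 216, 207, 218, 215 and 209.7 in WT SLAMF6+. Eif4e2, the cap-binding relative that represses, was at 70.7, 55.9, 68.9, 72.8 and 63.5 CPM in WT CXCR6+ and 108, 104, 121, 116 and 116 in WT SLAMF6+. Neither overlapped. Both scaffold genes of eIF4F were higher. Eif4g1 (chromosome 16, 20668313 to 20692884) stood at 90.6, 102, 82.5, 102 and 97.3 CPM in WT CXCR6+ and 45.5, 34.8, 44.8, 48.1 and 47.8 in WT SLAMF6+. The lowest CXCR6+ library was above the highest SLAMF6+ library by a wide margin, and the log2 fold change was 1.10 (SE 0.098) with an edgeR adjusted p of 1.01e-05. Eif4g3 (chromosome 4, 137993022 to 138208508) measured 33.8, 32.0, 43.6, 38.9 and 40.6 CPM in WT CXCR6+ and 12.4, 17.1, 14.8, 15.8 and 11.7 in WT SLAMF6+, a log2 fold change of 1.40 (SE 0.13). The helicase gene Eif4a1 was at 286, 236, 244, 302 and 266 CPM in WT CXCR6+ and 275, 224, 323, 302 and 361 in WT SLAMF6+. Its relative Eif4a2 was at 382, 388, 258, 424 and 307 CPM in WT CXCR6+ and 389.9, 374, 382, 399 and 402 in WT SLAMF6+. Both overlapped between subsets and did not pass (edgeR adjusted p = 0.348 and 0.367). Eif4g2, a related scaffold that does not bind eIF4E, was at -0.15 with an adjusted p of 0.0535.

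The eIF4E binders divided as well. Eif4ebp1 (chromosome 8, 27260329 to 27276674), the inhibitor that mTORC1 releases, stood at 128, 141, 168, 146 and 173 CPM in WT CXCR6+ and 326, 279.9, 316, 332 and 320.1 in WT SLAMF6+. Every CXCR6+ library was below every SLAMF6+ library, with a log2 fold change of -1.06 (SE 0.089) and an edgeR adjusted p of 6.82e-06. Eif4ebp2, its scarcer relative, was at 12.3, 10.8, 15.5, 8.37 and 9.48 CPM in WT CXCR6+ and 10.3, 12.1, 9.10, 9.34 and 6.33 in WT SLAMF6+, overlapped and did not pass (edgeR adjusted p = 0.36). Eif4ebp3 was higher in CXCR6+ at low counts, 11.0, 3.62, 8.45, 8.56 and 10.6 CPM against 1.53, 0, 1.27, 1.26 and 0.692, with 1 SLAMF6+ library at 0. Its log2 fold change was 3.11 (SE 0.63). Eif4enif1, the transporter that takes eIF4E into the nucleus and to silenced messengers, was higher without overlap, at 58.5, 65.4, 77.0, 71.5 and 59.7 CPM in WT CXCR6+ and 32.4, 32.9, 40.6, 35.6 and 34.0 in WT SLAMF6+ (0.92, SE 0.097).

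**Figure D2:**
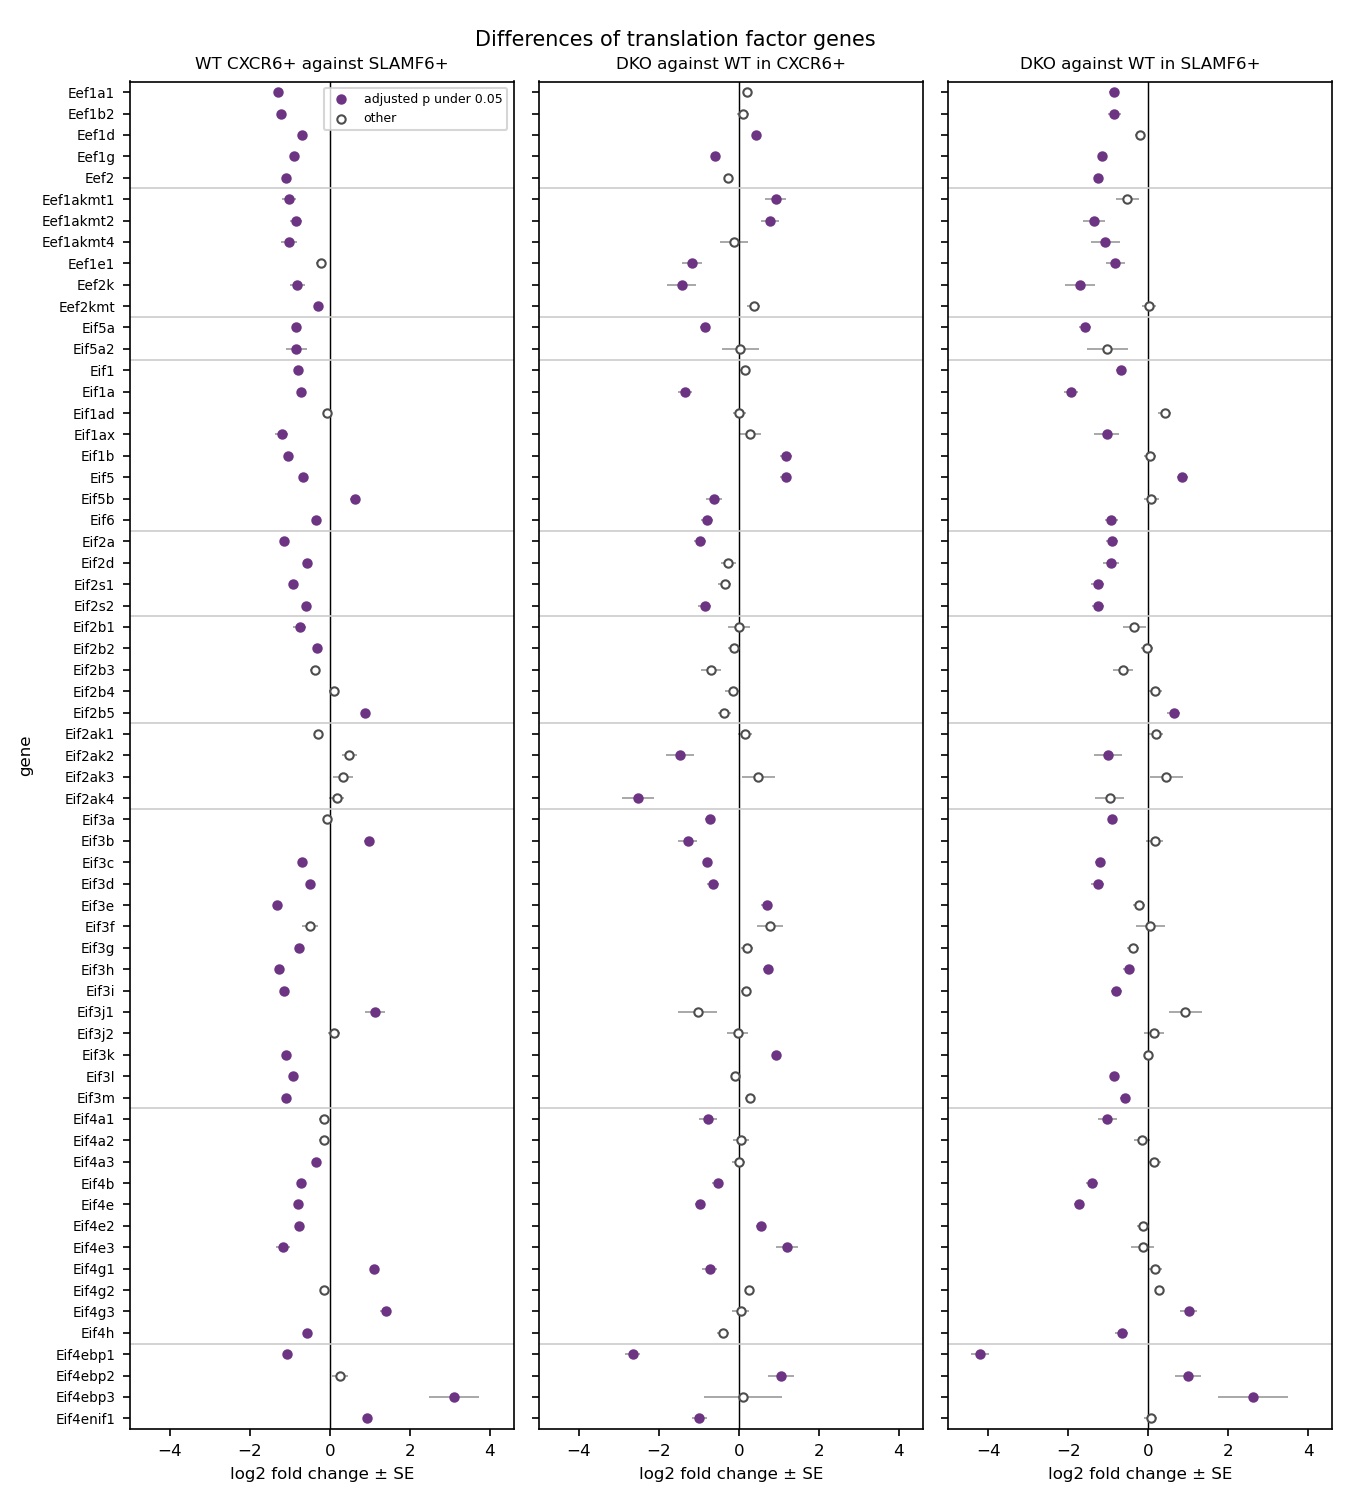
Log2 fold changes (horizontal axis, bars are ± SE) of the tested genes with a role, ordered by role on the vertical axis, in the 3 comparisons; filled points have an edgeR adjusted p under 0.05. Most filled points lie left of 0 in the WT comparison (40 of 64 members) and in DKO against WT in SLAMF6+ (30 of 64), and Eif4ebp1 is the leftmost point in both DKO panels.

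Transcript length moved with direction among the members between the WT subsets. The median transcript length was 2334 nt for the members lower in WT CXCR6+, 4562 nt for those higher and 3754 nt for those not called. Spearman's rho of the log2 fold change with length was 0.39 across 63 members with a length and 0.010 across 19515 genes, as a description of genes that share the same libraries. In the DKO comparisons described below, rho with length was -0.29 for the members in CXCR6+ and 0.084 in SLAMF6+ (all genes 0.085 and 0.072). With offsets fitted for transcript length and GC content, 31 members were lower and 9 higher between the WT subsets. Of the 48 called without offsets, 10 then lost their call, at log2 fold changes of -0.024 for Eif1, -0.019 for Eif6, -0.16 for Eif3g, -0.35 for Eif2b1, -0.11 for Eef1akmt1, -0.345 for Eef1akmt4 and -0.13 for Eef2kmt. Eef1akmt2, Eif2b2 and Eif4a3 were among the 10 and took the other sign (0.14, 0.096 and 0.21). Others kept their call with a log2 fold change smaller by over 1.5 times. These were Eef1a1 (-0.77), Eef1b2 (-0.75), Eef1d (-0.45) and Eef1g (-0.46) of the elongation factors, Eif1a (-0.44), Eif1b (-0.29), Eif5 (-0.42), Eif5a (-0.33) and Eif5b (0.40), and Eif2s1 (-0.60) and Eif2d (-0.34). The rest were Eif3c (-0.43), Eif3d (-0.26), Eif3h (-0.49), Eif3k (-0.61), Eif3m (-0.71) and Eif4ebp1 (-0.645). Eef2 (-1.17), Eif3e (-1.40) and Eif4g3 (1.03) stayed within 1.5 times. Among genes of at least 10 CPM in 5 libraries, Eef2kmt, Eif2b2, Eif4a3 and Eif6 did not pass. In that run 16 of the 44 called members it held, these 4 included, had a log2 fold change smaller by over 1.5 times. All 16 had been called lower in CXCR6+, such as Eif1a (from -0.71 to -0.45), Eif4b (-0.71 to -0.45), Eif3d (-0.49 to -0.23) and Eif4h (-0.575 to -0.31). Scaling factors were computed anew after this filter, and these genes rose by about the same amount. Eif4g1 and Eif4g3, higher in CXCR6+, reached 1.36 and 1.66 over the alternatives, from 1.10 and 1.40. Counts by direction thus depend on the scaling. Eef2k and Eif1ax were long members that were lower and Eif4ebp3 a short one that was higher.

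**Figure D3:**
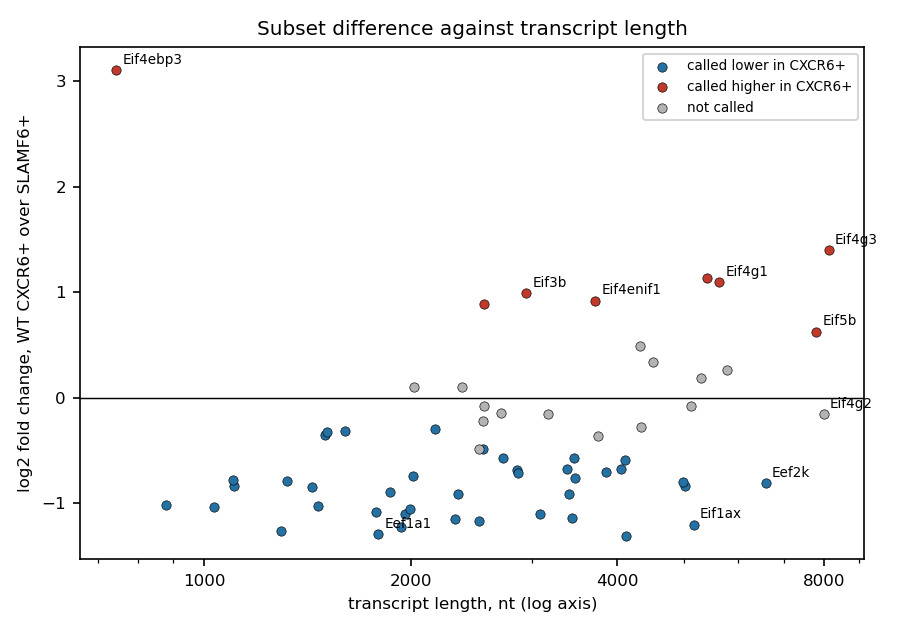
Each point is a tested gene with a role, with transcript length on a log axis (horizontal) and the log2 fold change of WT CXCR6+ over SLAMF6+ (vertical). Of the called-higher genes (red), Eif4g3, Eif5b and Eif4g1 sit at the long end and Eif4ebp3 alone at the short end; called-lower genes (blue) run across the range, with a median of 2334 nt.

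Ratios of 2 genes within a library do not depend on how libraries are scaled, and 10 were compared between the 5 and 5 WT libraries by an exact two-sided permutation test of the log2 ratio, where 0.00794 is the smallest p that 5 against 5 allows. After Benjamini-Hochberg adjustment over the 10, 2 ratios passed. Eif4ebp1 to Eif4ebp2 counts stood at 10.4, 13.1, 10.8, 17.4 and 18.3 in WT CXCR6+ and at 31.5, 23.2, 34.8, 35.6 and 50.6 in WT SLAMF6+ (log2 difference -1.32, exact permutation adjusted p = 0.0397). Eef1a1 to Eef2 counts were at 2.73 to 3.10 and 3.18 to 3.50, a small but separate shift (log2 difference -0.20, exact permutation adjusted p = 0.0397). Without WT CXCR6+ 3, WT SLAMF6+ 2, WT SLAMF6+ 4 or WT SLAMF6+ 5, neither passed (exact permutation adjusted p from 0.0529 to 0.0794), and without WT CXCR6+ 1 the first did not (0.0529). The log2 difference of the first ratio lay between -1.46 and -1.18 over these omissions. Eif4a1 to Eif4a2 overlapped at 0.607 to 0.947 and 0.598 to 0.897, as did Eif4e to Eif4e2 at 1.77 to 2.48 and 1.94 to 2.32, and the sign of both differences depends on single libraries. Eif5a to Eif5 was at 8.37 to 10.5 and 9.49 to 11.4 (exact permutation adjusted p = 0.111), and Eif1a to Eif1ax at 1.62 to 2.85 and 1.27 to 2.02 (exact permutation adjusted p = 0.0794).

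**Figure D4:**
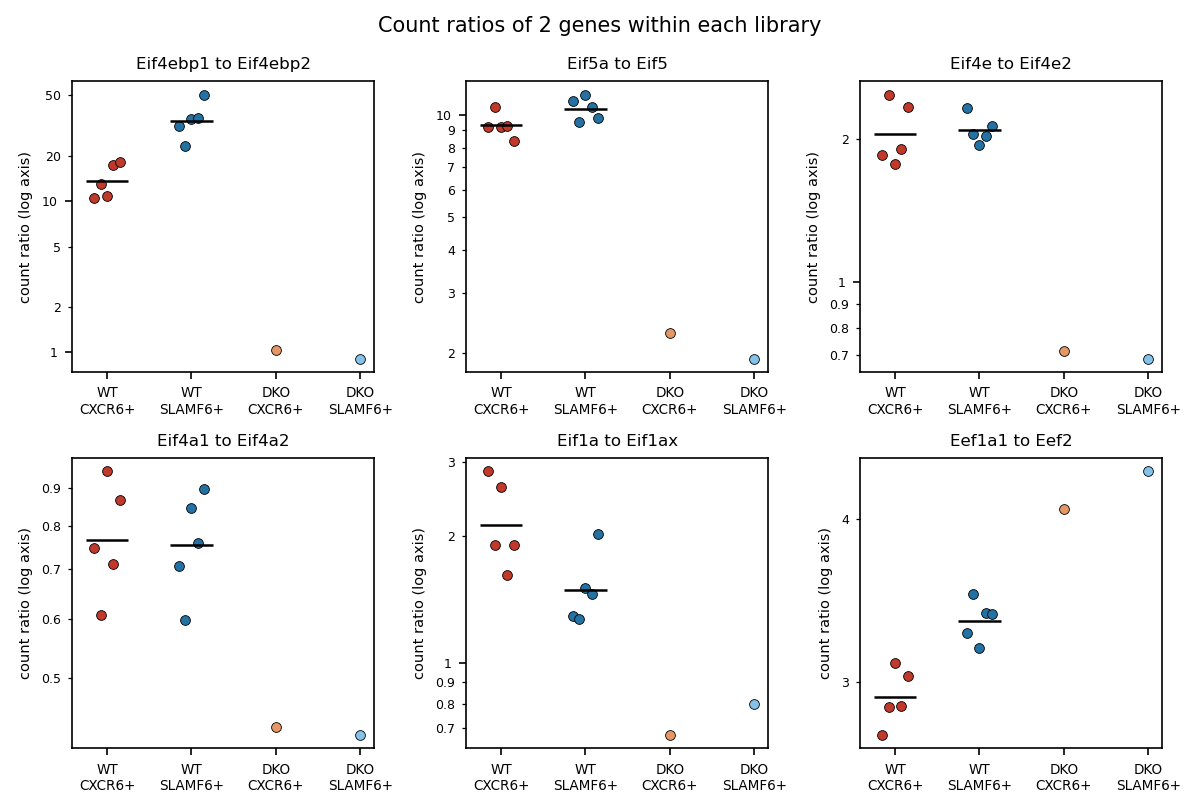
Count ratios of 6 gene pairs in each library on log axes, with the 5 WT libraries of each subset beside the single DKO libraries; horizontal bars are geometric means. The DKO points of Eif4ebp1 to Eif4ebp2 (1.03 and 0.908), Eif5a to Eif5 and Eif4e to Eif4e2 lie below all 10 WT points, and those of Eef1a1 to Eef2 above them.

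In the DKO libraries these ratios left the WT ranges. Eif4ebp1 to Eif4ebp2 was 1.03 in DKO CXCR6+ and 0.908 in DKO SLAMF6+, so that the 2 inhibitor transcripts had about equal counts. Eif5a to Eif5 was 2.29 and 1.93, Eif4a1 to Eif4a2 0.430 and 0.420, Eif4e to Eif4e2 0.716 and 0.689, and Eif1a to Eif1ax 0.674 and 0.801, each below all 10 WT libraries. Eef1a1 to Eef2 was above them at 4.07 and 4.35. With 1 library per subset, these carry no test.

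In CXCR6+ cells, DKO against WT, 21 members were lower and 11 higher. Of all genes tested, 15.9% were lower and 12.8% higher, against 32.8% and 17.2% of the members. With offsets for transcript length and GC content the split was 17 lower and 15 higher. In SLAMF6+ cells, 30 members were lower and 5 higher, 46.9% and 7.81%, against 17.5% and 13.5% of all genes. Without WT CXCR6+ 3 the counts were 23 and 11 in CXCR6+ and 31 and 4 in SLAMF6+. The split in SLAMF6+ was 21 lower and 13 higher with the offsets, and 24 lower and 10 higher among genes of at least 10 CPM in 5 libraries. Scaling factors were computed anew after that filter. In SLAMF6+, Eef1a1 (-0.86 to -0.57), Eef1b2 (-0.85 to -0.555) and Eef1e1 (-0.82 to -0.52) rose by about the same amount with it. Counts by direction thus depend on the scaling. The DKO library of each subset is assumed to vary like the WT libraries, which no second DKO library checks. The median log2 fold change of the members was -0.11 in CXCR6+ (all genes -0.22) and -0.55 in SLAMF6+ (all genes -0.051). The DKO value lay below all 5 WT values of its subset for 29 members in CXCR6+ (45.3%, all genes 28.1%). In SLAMF6+ it did so for 39 (60.9%, all genes 30.9%), and in both for 22. Values above all 5 WT libraries were found for 16 members in CXCR6+ and 12 in SLAMF6+. These were smaller shares than among all genes (29.6% and 35.1%). Of the 64, 16 were lower in both subsets, 2 higher in both, 2 opposite (Eef1akmt2 and Eif3h, higher in CXCR6+ and lower in SLAMF6+) and 17 called in neither. With the offsets neither was called in opposite directions, since Eef1akmt2 did not pass in CXCR6+ (0.51, edgeR adjusted p = 0.102) and Eif3h did not in SLAMF6+ (0.17, edgeR adjusted p = 0.292). How many of all genes were below the WT range, or called, in both subsets was not counted. Agreement between the subsets is thus not shown to be particular to the members. The 2 comparisons share no library, but both DKO libraries share the sex difference and several of the marker differences given above. The erythroid marker sum was 143700 CPM in DKO SLAMF6+ but 2.66 in DKO CXCR6+, and the neutrophil sum 91.8 and 926. The part of such differences in the interaction below was not tested. Mitochondrial genes took 7.45 and 8.56% of DKO CXCR6+ and DKO SLAMF6+ counts. Malat1 took 0.66 and 0.59%, and ribosomal protein genes 15.8 and 14.8%. These lay between the WT subsets, and their part was not tested. Counts of mt-Ts1 were above 0 in both DKO libraries, unlike 4 of 5 WT SLAMF6+ libraries. With a term for libraries at 0, Eif3h (-0.38), Eef1e1 (-0.75), Eif4ebp2 (0.88) and Eef1akmt4 (-1.13) did not pass in SLAMF6+. All members together made up 1.36% and 1.26% of DKO CXCR6+ and DKO SLAMF6+ counts, or 8.61 and 8.54 counts per 100 ribosomal protein counts, below all 10 WT libraries.

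Eif4ebp1 had the lowest log2 fold change of any called member in both subsets. The DKO CXCR6+ library held 24.1 CPM against 128 to 173 in WT CXCR6+, and the DKO SLAMF6+ library 17.1 CPM against 279.9 to 332 in WT SLAMF6+. The log2 fold changes were -2.65 (SE 0.19) and -4.20 (SE 0.21), with edgeR adjusted p-values of 2.48e-06 and 2.95e-07. Its relative Eif4ebp2 was higher in both, at 23.4 and 18.8 CPM, with log2 fold changes of 1.05 (SE 0.33) and 1.00 (SE 0.34) and edgeR adjusted p-values of 0.0356 and 0.0438. Eif4ebp3 was higher in DKO SLAMF6+ (6.08 CPM, 2.63, SE 0.88), and in CXCR6+ its value of 9.02 CPM lay inside the WT range. The Eif4ebp2 call in CXCR6+ was lost without WT CXCR6+ 2, 4 or 5 (edgeR adjusted p from 0.0516 to 0.06). In SLAMF6+ it was lost without WT CXCR6+ 1, 2 or 5 or WT SLAMF6+ 1, 3, 4 or 5 (0.0503 to 0.0701), and that of Eif4ebp3 without WT CXCR6+ 1, 3, 4 or 5 or WT SLAMF6+ 3, 4 or 5 (0.053 to 0.0705).

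The cap-binding gene Eif4e (chromosome 3, 138526179 to 138559696) was lower in both DKO libraries, at 69.5 and 71.0 CPM against 131, 138, 122, 139 and 148 in WT CXCR6+ and 251, 214, 234, 235 and 247 in WT SLAMF6+. Both DKO values lay below all 10 WT values, with log2 fold changes of -0.97 (SE 0.12) and -1.73 (SE 0.13). The other cap-binding genes did not follow: Eif4e2 and Eif4e3 were higher in CXCR6+ (0.55 and 1.21) and did not pass in SLAMF6+ (-0.13 and -0.14). The helicase gene Eif4a1 was lower in both, at 156 and 147 CPM (-0.77, SE 0.22 and -1.02, SE 0.23), whereas Eif4a2 stood at 364 and 349.9 CPM and did not pass in either (0.048 and -0.15). Eif4b was lower in both (-0.53, SE 0.14 and -1.40, SE 0.15). The scaffold gene Eif4g1 was lower in CXCR6+ (-0.73, SE 0.18, 57.0 CPM) and did not pass in SLAMF6+ (0.18, 50.2 CPM), while Eif4g3 was higher in SLAMF6+ (1.01, SE 0.21, 29.0 CPM) and did not pass in CXCR6+ (0.043, 39.0 CPM).

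Of the factors around the start codon, Eif1a (chromosome 18, 46597701 to 46616456) fell below every WT library. It was at 17.0 and 18.7 CPM in DKO against 43.0, 40.2, 47.4, 47.2 and 38.5 in WT CXCR6+ and 69.1, 61.4, 72.8, 75.5 and 75.6 in WT SLAMF6+. The log2 fold changes were -1.35 (SE 0.17) and -1.92 (SE 0.17), with edgeR adjusted p-values of 0.00011 and 1.24e-05. Eif5 (chromosome 12, 111538016 to 111546752) went the other way, at 221 and 286 CPM against 89.0, 83.2, 101, 108 and 110.1 in WT CXCR6+ and 150.2, 152, 149, 163 and 174 in WT SLAMF6+. Both DKO values lay above all 10 WT values, with log2 fold changes of 1.17 (SE 0.14) and 0.86 (SE 0.14). Eif5a (chromosome 11, 69916714 to 69921958) was lower in both, at 505 and 550.4 CPM against 822, 875, 933, 1004 and 922 in WT CXCR6+ and 1649, 1439, 1710, 1710 and 1696 in WT SLAMF6+ (-0.85, SE 0.13 and -1.58, SE 0.14). Eif1b was higher in CXCR6+ (68.4 CPM, 1.18, SE 0.14), where it reached the level of the SLAMF6+ libraries, and did not pass in SLAMF6+ (64.6 CPM, 0.057). Eif6 was lower in both (-0.79 and -0.92 log2).

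Elongation factors were mostly lower in DKO SLAMF6+ and mixed in DKO CXCR6+. In SLAMF6+, 4 of 5 were lower in DKO: Eef2 (-1.24, SE 0.11), Eef1g (-1.15, SE 0.093), Eef1a1 (-0.86, SE 0.12) and Eef1b2 (-0.85, SE 0.17). In CXCR6+, Eef1g was lower (-0.59, SE 0.089), Eef1d was higher (0.44, SE 0.11) and the others did not pass (Eef1a1 0.21, Eef1b2 0.097, Eef2 -0.26). The eEF2 kinase gene Eef2k was lower in both, at 2.08 and 3.04 CPM (-1.43, SE 0.37 and -1.70, SE 0.37). Eef1e1 was lower in both (-1.18 and -0.82) on the log2 scale.

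Within eIF2 and its control, Eif2s2 and Eif2a were lower in both subsets (Eif2s2 -0.86 and -1.25, Eif2a -0.97 and -0.90), and Eif2s1 and Eif2d in SLAMF6+ (-1.25 and -0.93). Eif2ak2 (PKR) was lower in both, at 5.55 and 5.50 CPM (-1.48, SE 0.35 and -1.0, SE 0.34). The SLAMF6+ call of Eif2ak2 was lost without WT CXCR6+ 1, 4 or 5 or WT SLAMF6+ 2, 3 or 5 (edgeR adjusted p from 0.0549 to 0.0747). Eif2ak4 (GCN2), which senses uncharged tRNA, was at 1.50 CPM in DKO CXCR6+ against 8.93, 10.4, 8.91, 7.17 and 7.81 in WT CXCR6+, a log2 fold change of -2.51 (SE 0.40) with an edgeR adjusted p of 0.000729. In SLAMF6+ it was at 3.91 CPM against 5.19 to 8.81 and did not pass (-0.96, edgeR adjusted p = 0.0629). Eif2ak1 and Eif2ak3 did not pass in either. Of the 5 eIF2B genes, Eif2b5 was higher in SLAMF6+ (0.64, SE 0.15), the other 4 did not pass there, and none passed in CXCR6+. Of 14 eIF3 genes, 4 were lower and 3 higher in CXCR6+, and 7 lower and none higher in SLAMF6+. Eif3a, Eif3c and Eif3d were lower in both (Eif3a -0.73 and -0.90, Eif3c -0.80 and -1.20, Eif3d -0.65 and -1.26), and Eif3e, Eif3h and Eif3k were the 3 higher in CXCR6+ (0.69, 0.74 and 0.92).

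Some of these calls did not hold with the offsets for transcript length and GC content. In CXCR6+ these were Eif4g1 (-0.37), Eif5b (-0.42), Eif4b (-0.35), Eif3d (-0.29) and Eef1akmt2, and Eef1g kept its call at -0.34. When the fit held the CXCR6+ libraries alone, Eif5b, Eef1akmt1, Eef1akmt2, Eif4b, Eef1d, Eif4ebp2 and Eef2k did not pass (edgeR adjusted p from 0.0506 to 0.0863). In SLAMF6+ the offsets ended the calls of Eef1a1 (-0.32), Eef1b2 (-0.315), Eif1 (-0.030), Eif3i (-0.33), Eif3m (-0.23), Eef1e1 (-0.33), Eif2ak2 (-0.67), Eef1akmt4 (-0.42) and Eif3h. The SLAMF6+ calls of Eef2 (-0.97), Eef1g (-0.57), Eif5a (-1.04), Eif3d (-0.77), Eif3l (-0.35), Eif2d (-0.53), Eif4a1 (-0.625), Eif4h (-0.325), Eif6 (-0.435), Eef1akmt2 (-0.72) and Eif2b5 (1.08) were kept, all but Eef2 with a change of over 1.5 times in the log2 fold change. Eif4ebp1, Eif4e, Eif1a, Eif5, Eif5a, Eif2s2, Eif2a, Eif3a and Eif3c passed in both subsets under each alternative run.

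The genotype difference itself differed between subsets for 25 of 64 members by the interaction term of the same fit. It was more positive in CXCR6+ for 21 of them and more negative for 4, against 6.36% and 3.94% of all genes. With offsets for transcript length and GC content, 10 members were called, 7 more positive and 3 more negative, and among genes of at least 10 CPM in 5 libraries 17 and 6 were. The differences between subsets of Eif4ebp3, Eif4e3, Eif4g3 and Eif2ak4, each called in 1 subset, did not pass (edgeR adjusted p = 0.329, 0.0708, 0.0811 and 0.0725). All 5 elongation factors were among the 21, Eef1a1 with 1.08 (SE 0.16) on the log2 scale and an edgeR adjusted p of 0.00339 (0.0503 with the offsets), and Eef2 with 0.98 (SE 0.14) and 0.00282. With the offsets Eef1b2 (0.53, edgeR adjusted p = 0.297), Eef1d (0.465 and 0.14) and Eef1g (0.23 and 0.273) did not pass either, nor did these 3 among genes of at least 10 CPM in 5 libraries (0.0548, 0.0825 and 0.0952), and Eef2 was the elongation factor that passed under each alternative run. Eif4ebp1 (1.55, SE 0.23), Eif3k (0.93, SE 0.14), Eif3h (1.23, SE 0.19) and Eif1b (1.12, SE 0.22) were others. With the offsets Eif3h (0.57, edgeR adjusted p = 0.0589) and Eif1b (0.49 and 0.227) did not pass, and Eif3k passed at 0.57. The 4 with the opposite sign were Eif3b (-1.44, SE 0.31), Eif4enif1 (-1.05, SE 0.24), Eif2b5 (-1.0, SE 0.22) and Eif4g1 (-0.92, SE 0.24), which were also among the 8 members higher in WT CXCR6+. Of these, Eif4g1 and Eif2b5 did not pass with the replicate block (edgeR adjusted p = 0.0803 and 0.0826). With a term for libraries listing mt-Ts1 at 0, Eif3e (0.90), Eef1akmt1 (1.45), Eif5a (0.71), Eef1d (0.61) and Eif4e2 (0.60) did not pass. The interaction and the WT comparison share all 10 WT libraries. The 21 more positive members were all called lower in WT CXCR6+. The genes that follow were thus chosen by an interaction of the sign opposite to their WT difference. Closer DKO values come largely from that choice and are no further result. By level, the DKO libraries lay closer to each other than the WT subsets did for these genes. Eef1a1 was at 4767 CPM in DKO CXCR6+ and 5536 in DKO SLAMF6+, and Eef2 at 1172 and 1273. Eef1b2 was at 1071 and 1304 CPM, Eef1g at 379 and 479, and Eef1d at 290.1 and 297. Both DKO values of Eef1a1, Eef1b2 and Eef1d lay between the means of the WT subsets, and those of Eef2 and Eef1g below both means. Eif3e was at 207 and 272 CPM, Eif3h at 419.7 and 432, Eif3i at 185 and 209 and Eif3k at 381 and 423. Eif3b was at 25.7 and 35.2 CPM, and Eif4enif1 at 33.5 and 36.8, both near the WT SLAMF6+ level. Between the 2 DKO libraries themselves, 4 of 64 members differed by at least 2-fold, 3 lower and 1 higher in CXCR6+, against 29.5% of all genes, and the median log2 ratio of the members was -0.12. All genes include many scarce ones, whose ratio between single libraries is noisy, so these shares do not compare genes of like abundance. The 4 members were chosen by that fold after their values were seen: Eif2a (18.4 against 42.7 CPM), Eif2ak4 (1.50 against 3.91), Eif4a3l2 (0 against 1.74) and Eef1akmt2 (38.7 against 15.8), the last of which was the higher in CXCR6+.

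Other genes of the same pathways were read from lists. Their counts, here and in the next paragraph, are to be read beside the shares of all genes given above for each comparison. Between the WT subsets these were 17.7% lower and 15.6% higher. The aminoacyl-tRNA synthetase list, the enzymes that charge tRNA with 2 proteins of their complex, Aimp1 and Aimp2, had 12 of 20 genes lower and 3 higher in WT CXCR6+, 19 lower and 1 higher in DKO CXCR6+ against WT, and 19 lower and none higher in DKO SLAMF6+ against WT. The median log2 fold changes of the list were -0.72 and -1.17 in the DKO comparisons. Gars, for glycine, was at 55.1 and 42.9 CPM in DKO against 140.3 ± 10.8 and 209 ± 7.98 in WT CXCR6+ and WT SLAMF6+ (mean ± SD, n = 5), with log2 fold changes of -1.35 (SE 0.12) and -2.29 (SE 0.13). Cars, for cysteine, changed by -2.53 (SE 0.21) and -1.59 (SE 0.20), and Iars, for isoleucine, by -1.34 (SE 0.14) and -2.15 (SE 0.15). Kars, for lysine, was the gene higher in DKO CXCR6+ (0.45, SE 0.098), and Tars did not pass in DKO SLAMF6+ (-0.40). The integrated stress response list, genes downstream of eIF2 phosphorylation and its control, had 5 of 14 lower and 1 higher in WT CXCR6+, 11 lower and 1 higher in DKO CXCR6+, and 9 lower and none higher in DKO SLAMF6+. The transcription factor gene Atf4 was at 80.7 and 80.5 CPM in DKO against 159 ± 16.9 and 207 ± 14.6 in WT (-0.98, SE 0.15 and -1.36, SE 0.16). Asns, asparagine synthetase, was at 7.86 and 4.34 CPM against 57.5 ± 8.42 and 92.6 ± 9.53 (-2.87, SE 0.24 and -4.41, SE 0.27). Atf3 had 1 count in each DKO library (0.116 and 0.145 CPM) against 46.7 to 56.3 CPM in WT CXCR6+ and 102 to 131 in WT SLAMF6+. Trib3, a target of ATF4, was at 1.50 and 1.16 CPM against 14.5 to 22.5 and 27.1 to 35.7.

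**Figure D5:**
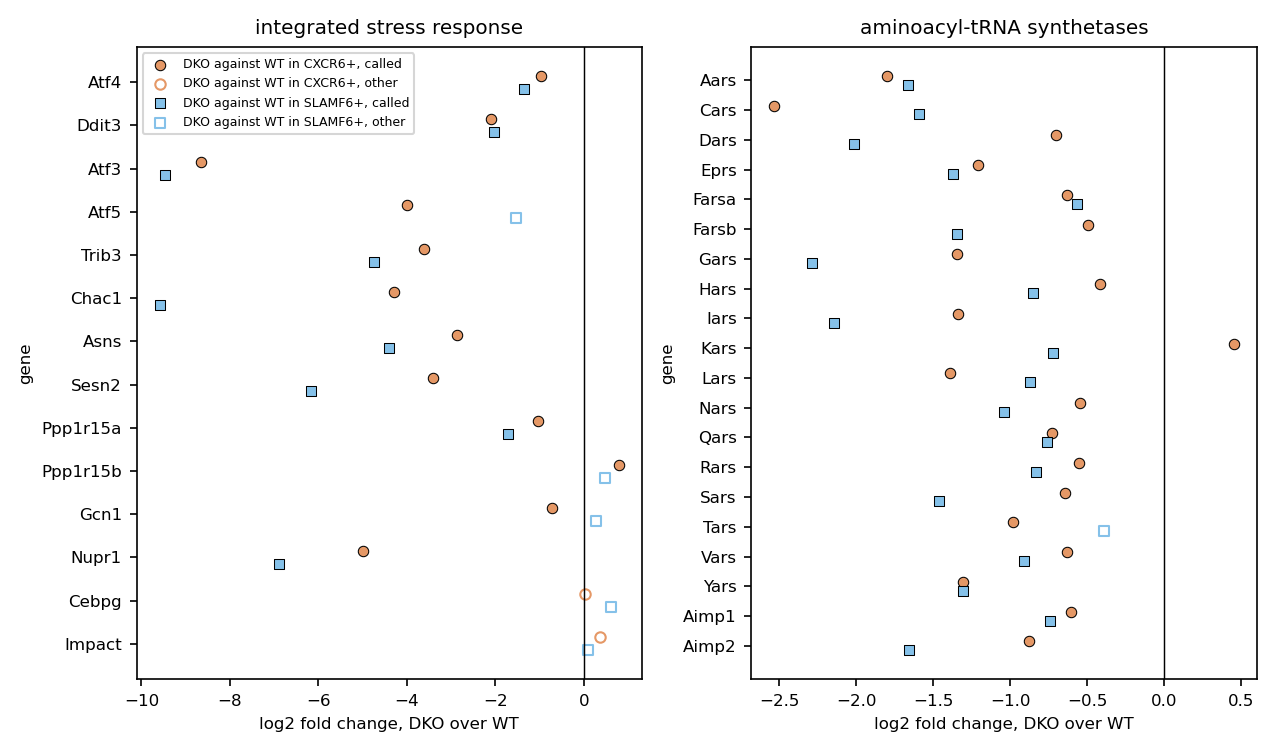
Log2 fold changes of DKO over WT (horizontal axis) for the integrated stress response and aminoacyl-tRNA synthetase lists (genes on the vertical axis), circles for CXCR6+ and squares for SLAMF6+, filled where the edgeR adjusted p is under 0.05. Filled points lie left of 0 for 11 of 14 and 9 of 14 stress response genes and for 19 of 20 synthetases in each subset; points of genes with 0 to 3 counts in a DKO library (Atf3, Atf5, Chac1, Nupr1, Sesn2) depend on the fit and are no bounds.

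The TOP messages outside the family, which share the TOP tract with many members, had 9 of 10 lower and 1 higher in WT CXCR6+, 4 lower and 6 higher in DKO CXCR6+, and 5 lower and none higher in DKO SLAMF6+. Npm1, nucleophosmin, was at 568 and 633 CPM in DKO against 841 ± 62.3 in WT CXCR6+ and 1881 ± 88.2 in WT SLAMF6+ (mean ± SD, n = 5). The mTORC1 list had 9 of 20 lower and 4 higher in WT CXCR6+, 2 lower and 8 higher in DKO CXCR6+, and 6 lower and 4 higher in DKO SLAMF6+. Lamtor4, part of the lysosomal anchor of mTORC1, was higher in DKO in both subsets (1.93, SE 0.15 and 1.05, SE 0.16), and so was Rptor, its raptor subunit (1.16, SE 0.19 and 1.94, SE 0.18), whereas Sesn2, an inhibitor shared with the stress response list, was lower in both, at 2.66 and 0.434 CPM against 20.1 to 36.0 and 28.9 to 36.5. The accessory initiation factors had 7 of 19 lower and 5 higher in WT, 5 lower and 3 higher in DKO CXCR6+, and 5 lower and 3 higher in DKO SLAMF6+. In each DKO comparison this was 26.3% lower and 15.8% higher, the latter near the share of all genes. Pdcd4, an inhibitor of eIF4A, was at 114 and 102 CPM in DKO against 29.3 ± 4.66 and 29.5 ± 3.65 in WT (1.97, SE 0.18 and 1.79, SE 0.19), and Bzw2 was also higher in both (1.42, SE 0.19 and 1.89, SE 0.18). Larp1, which binds TOP messages, was higher in WT CXCR6+ (1.09, SE 0.091) and lower in DKO CXCR6+ (-1.43, SE 0.17). The termination and recycling list had 2 of 6 lower and 2 higher in WT, with Gspt1, the eRF3 gene, at 71.9 ± 8.31 against 26.0 ± 4.62 CPM (1.47, SE 0.13), 3 lower in DKO CXCR6+ and 2 lower in DKO SLAMF6+. The hypusine and diphthamide list, enzymes that modify eIF5A and eEF2, had 3 of 9 lower (33.3%) and 1 higher (11.1%) in WT. In both DKO comparisons its called shares were near those of all genes or below them. Dph3 was the higher gene in both (1.33, SE 0.20 and 0.79, SE 0.20). Mitochondrial translation factors had 5 of 11 lower and 1 higher in WT, 1 lower and 2 higher in DKO CXCR6+, and 1 lower and 3 higher in DKO SLAMF6+. In DKO CXCR6+ this was 9.09% lower and 18.2% higher, near the shares of all genes. Beside them, 63 of 87 ribosomal protein genes were higher and none lower in DKO CXCR6+, and 34 lower and 4 higher in DKO SLAMF6+.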

How the data were processed

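RNA was sequenced from 12 libraries of 1000 sorted living cells each, made with a modified SMART-Seq2 protocol that does not mark strand and Nextera XT, and read as paired ends, per the labels' protocols. The authors deposited 1 table of expected counts per gene, in whole numbers, for which the submitters' processing notes name RSEM (version 1.3.3), STAR (version 2.7.7a) and the build mm10. The annotation is not given in the sources used here. All 12 columns were matched to samples by title, and 1 library was taken as 1 sample. The members and gene lists were chosen with earlier results of these data known.

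Genes passing edgeR's filterByExpr (21565 of 47359) were scaled by TMM and fitted in 1 quasi-likelihood model over the 4 groups (edgeR 4.0.16, R 4.3.3, 8 residual degrees of freedom), with Benjamini-Hochberg adjustment over all of them at 0.05. The DKO libraries, 1 per subset, were assumed to vary like WT. CPM is counts per 1000000 counts of the TMM-scaled library. Ratios had 0.5 added to each gene's count and were tested by exact permutation. Lengths, GC content and positions came from GENCODE M21 (GRCm38), which held 67 of the 87 members, and promoters from RefSeq (GRCm38.p6). The median member count per library was between 354.5 and 1035.5, which limits the precision of scarce members. Full values were given for the compared pairs, the 12 lowest and 12 highest called WT differences and the 6 lowest and 6 highest DKO differences at 20 CPM or more, members called in the interaction by fold and SE, and the eIF4E binders. Of other pathway lists, up to 4 genes by p were eligible to be named, and Atf4, Tars, Aimp1 and Aimp2 were named outside it after their values were seen. Alternatives were DESeq2 1.42.0 (size factors and Wald test), other filters, a scaling without abundant gene classes, a replicate block, offsets for length and GC content, a term for libraries listing mt-Ts1 at 0, and leaving out each WT library. DKO libraries were not left out, since their group would be empty. 1 gene of the TOP list is not reported here by name.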

Additional observations from a re-analysis of the deposited data

Results flagged for a closer look

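In the groups of 5 WT libraries, 82 sets of member values were checked for a library far from the others, and 3 were found, each with its lowest value far below the other 4. They were Eif1b in WT CXCR6+ 2 (24.5 CPM), Eif4g1 in WT SLAMF6+ 2 (34.8 CPM) and Eif5a in WT SLAMF6+ 2 (1439 CPM). Chance alone gives such a library in about 1 of 20 sets.

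The DKO against WT difference itself differed between the subsets for 25 members, by the interaction term in edgeR's quasi-likelihood test. The values below are the CXCR6+ difference minus the SLAMF6+ difference on the log2 scale. Elongation factors were all positive, with 1.08 for Eef1a1, 0.95 for Eef1b2, 0.65 for Eef1d, 0.56 for Eef1g and 0.98 for Eef2. The eEF1A methyltransferases Eef1akmt1 and Eef1akmt2 had 1.44 and 2.14. Among start codon and eIF2 genes, Eif1 had 0.84, Eif1b 1.12, Eif2s1 0.90 and Eif2b5 -1.0. Among eIF3 genes, Eif3e had 0.92, Eif3h 1.23, Eif3i 0.97, Eif3k 0.93, Eif3l 0.75, Eif3m 0.86 and Eif3b -1.44. Of eIF4 and eIF5A genes and binders, Eif4b had 0.87, Eif4e 0.77, Eif4e2 0.68, Eif4g1 -0.92, Eif4ebp1 1.55, Eif4enif1 -1.05 and Eif5a 0.72. Each rests on 1 DKO library per subset. The calls lost under the most alternatives were Eif4e2 (edgeR adjusted p = 0.049, at most 0.182 over the alternatives), Eef1akmt1 (0.0485, at most 0.348) and Eif4g1 (0.0348, at most 0.105). With offsets for transcript length and GC content these did not pass, nor did Eef1a1, Eef1b2, Eef1d, Eef1g, Eif1, Eif1b, Eif2s1, Eif3h, Eif3i, Eif3m, Eif4b and Eif5a, with edgeR adjusted p-values from 0.0503 (Eef1a1) to 0.633 (Eif1).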

How the results depend on the processing

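The totals of called members, both directions together, stayed within 1.5 times of those reported under all alternatives run, except the interaction with offsets for transcript length and GC content, which gave 10 in place of 25 (7 higher, 3 lower). Counts by direction moved more: the 5 members higher in DKO against WT in SLAMF6+ were 13 with the offsets, 10 among genes of at least 10 CPM in 5 libraries and 2 with no filter. Under at least 1 alternative, 11 of the 48 members called between the WT subsets lost their call, 9 of 32 in DKO against WT in CXCR6+, 12 of 35 in SLAMF6+ and 17 of 25 in the interaction. With the offsets, log2 fold changes took the other sign for Eef1akmt2 (0.139), Eif2b2 (0.096) and Eif4a3 (0.208) between the WT subsets and for Eif3h (0.168) in DKO against WT in SLAMF6+, none of which passed. Leaving out each WT library in turn gave 46 to 49 called members between the WT subsets, 31 to 35 for DKO against WT in CXCR6+, 31 to 36 in SLAMF6+ and 22 to 27 in the interaction. DESeq2's Wald test gave 50, 36, 37 and 29. The median log2 fold change of all genes between the WT subsets was 0.13, and 0.26 with the offsets.

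Of the 10 ratios, 2 passed, and 0 to 2 when each WT library was left out. With the replicate block 0 passed, where the smallest exact permutation p is 0.0625. Differences near 0 changed sign when single libraries were left out: Eif4e to Eif4e2 lay between -0.096 and 0.025 on the log2 scale, Eif4a1 to Eif4a2 between -0.057 and 0.11, and Eif2ak3 to Eif2ak2 between -0.39 and 0.004. The cause was not tested.

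With the replicate number as a block, 48 members were called between the WT subsets (40 lower, 8 higher) and 21 in the interaction, without Eif4g1, Eif2b5, Eef1akmt1 and Eif4e2. Same-numbered libraries of the 2 subsets did not deviate together (r from -0.012 to 0.029), and 2 of 5 correlated best with their own number. DKO against WT was not run with the block, since the DKO libraries carry another number. With 1 library per DKO group, and 1000 cells per library, a member that did not pass is not shown to be equal between groups.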
